A study of Drosophila melanogaster with 36 samples.

Results

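The larval serum proteins and the fat body proteins named after this organ are the storage and uptake proteins of the Drosophila larva, and their 6 genes (Lsp1alpha, Lsp1beta, Lsp1gamma, Lsp2, Fbp1 and Fbp2) are described here in the larval fat body. They were taken by gene symbol, and all 6 were found among the 17610 genes of the counts. The larval serum proteins are hexamerins, large proteins that the fat body makes and secretes into the hemolymph during the last larval instar. Near the end of feeding, under the steroid hormone ecdysone, the fat body takes them back up through a receptor encoded by Fbp1 and keeps them as protein granules, a store of amino acids for metamorphosis. Fbp2 encodes a fat body protein of the alcohol dehydrogenase family.

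RNA was sequenced from fat bodies of larvae in the third instar, the last before pupariation, of w1118, a laboratory strain with a white-eye mutation, and of per0, a mutant of the clock gene period. Larvae were sampled in constant darkness every 4 h at 9 circadian times (CT), CT0 to CT32, with 2 libraries per genotype and time, each from the fat bodies of 5 larvae. The labels describe the larvae as a mixed population of the sexes, and male RNA, measured below, ran from 0.667 to 331 CPM over the libraries. The stage was judged from the mouth hooks, and the labels give no age in hours. CT0, CT4 and CT8 are called the first day here, CT12, CT16 and CT20 the subjective night, and CT24, CT28 and CT32 the second day, with 6 libraries per genotype in each. The study asked about daily and shorter rhythms with and without the clock, and the comparisons below follow its times and genotypes.

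The 36 libraries held 16513757 to 28423768 counts. Levels are CPM, counts relative to the TMM-adjusted total of their library, and a floor of 3 counts lay between 0.106 and 0.182 CPM before that scaling. Fat body markers were present throughout, with the lipoprotein apolpp at 5938 to 22997 CPM. The per transcript itself was at most 1.10 CPM in w1118 and 1.99 CPM in per0, too low to check the genotype labels. The per0 CT28 library of column B held RNA of both genotypes: nAChRalpha7 measured 14.8 CPM in it, at most 1.004 CPM in the rest of per0, and 35.02 CPM as the w1118 median. It is kept below, and the second-day levels and the calls that change without it are given. In whole tissue, fewer cells of a type and less RNA per cell cannot be told apart.

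Together the 6 transcripts took a large and rising part of the sequenced RNA. In w1118 their share of all counts was 8.71 to 30.0% on the first day (median 16.4%, n = 6 libraries), 18.6 to 30.1% in the subjective night (median 22.4%) and 32.4 to 40.8% on the second day (median 38.0%). In per0 it was 1.03 to 6.23% on the first day (median 4.79%), 7.08 to 26.1% in the subjective night (median 18.6%) and 19.3 to 35.997% on the second day (median 32.5%, or 30.9% without the mixed library). The first-day shares of the genotypes did not overlap, and the second-day shares did. Lsp1beta had the highest count of any gene in 30 of the 36 libraries, and the mitochondrial ribosomal RNA mt:lrRNA in the other 6. The widest 95% Wilson interval of a share was 0.0468 percentage points, which covers counting error only, and most duplicates differed by more than that.

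**Figure D1:**
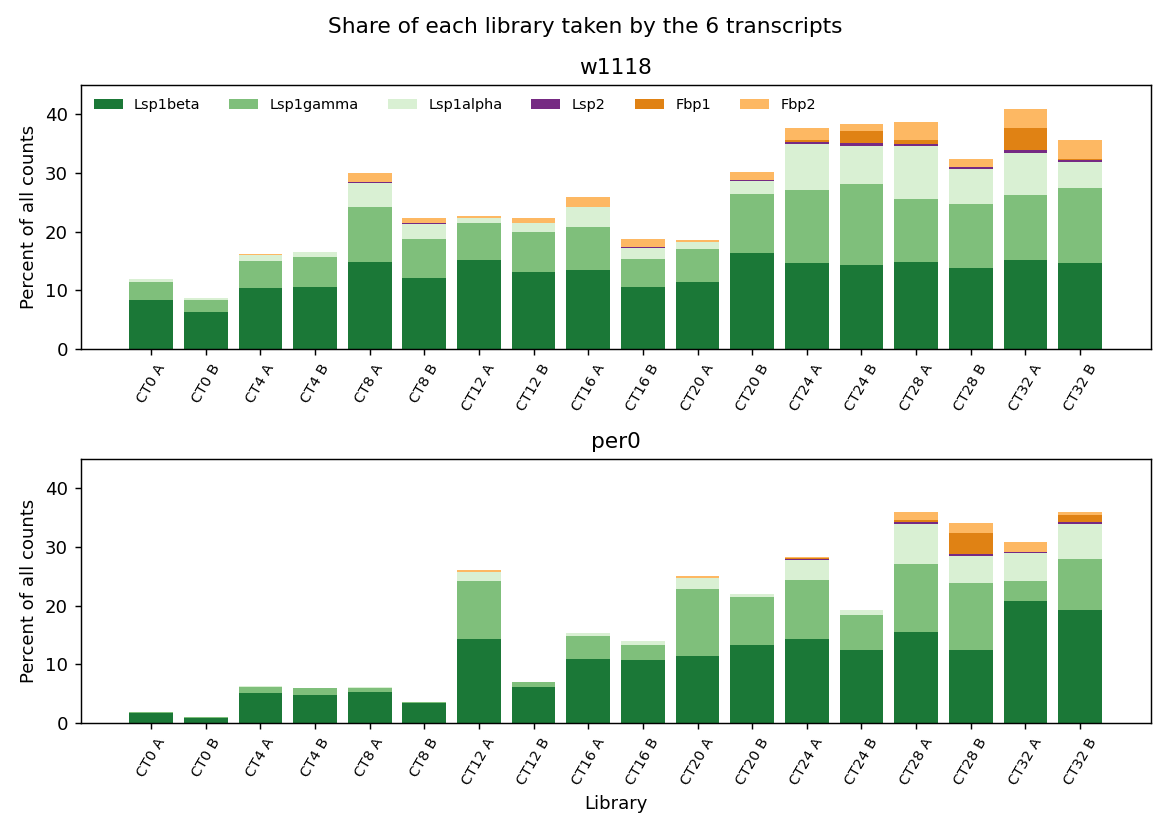
Share of all counts, in percent, taken by each of the 6 transcripts in every library, stacked, with w1118 above and per0 below. The sum grew from 8.71% to 40.8% over the w1118 libraries and from 1.03% to 35.997% over the per0 libraries, most of it Lsp1beta, Lsp1gamma and Lsp1alpha.

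Per kilobase of exon, the levels followed the order Lsp1beta, Lsp1gamma, Lsp1alpha, Fbp2, Lsp2, Fbp1 in 15 of the 36 libraries (10 of w1118 and 5 of per0), and most single steps of it held more widely. Lsp1beta lay above Lsp1gamma in 33 of 36 libraries, Lsp1gamma above Lsp1alpha in 35, Lsp1alpha above Fbp2 in 30, and Fbp2 above Lsp2 in 33, while Lsp2 lay above Fbp1 in 25. Exon lengths, from the Ensembl annotation, were 2749 nt for Lsp1beta on chromosome arm 2L, 2501 nt for Lsp1gamma on 3L, 2625 nt for Lsp1alpha on X, 2477 nt for Lsp2 and 3465 nt for Fbp1 on 3L, and 1074 nt for Fbp2 on 2L. The 3 Lsp1 genes are close relatives that can share reads, and how such reads were counted is not given in the sources used here, so the division among them is uncertain. Exons of Fbp2 overlap CG42847, which had at most 530 counts in a library, and exons of Lsp2 overlap the antisense RNA asRNA:CR11538, which had at most 8. The library kit keeps no strand, so reads of overlapping genes cannot be told apart.

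Lsp1beta, a subunit of the Lsp1 hexamers, was abundant in every library. In w1118 it measured 53772 to 170757 CPM on the first day (median 94179), 91655 to 157073 in the subjective night (median 132149) and 134735 to 167218 on the second day (median 145846). In per0 it measured 7025 to 48053 CPM on the first day (median 33619), 59145 to 180854 in the subjective night (median 129751) and 120906 to 313194 on the second day (median 187222). The highest values of all were the per0 CT32 libraries, at 313194 and 266404 CPM, above every w1118 library. All 6 first-day per0 libraries lay below all 6 of w1118.

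Lsp1gamma, another subunit, covered a wider range. In w1118 it measured 18027 to 106695 CPM on the first day (median 44413), 45460 to 96545 in the subjective night (median 62268) and 106768 to 136568 on the second day (median 120819). In per0 the first day gave 966 to 10695 CPM (median 3690), the subjective night 8061 to 178308 (median 69477) and the second day 51114 to 156273 (median 113497). The second-day libraries of w1118 all lay above its first-day libraries, but only just, since CT8 A reached 106695 CPM.

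Lsp1alpha, the subunit gene on the X chromosome, known for lacking dosage compensation between the sexes, started lower and rose further. In w1118 the A and B libraries measured 4180 and 2993 CPM (CT0), 9915 and 7693 (CT4), and 47281 and 21432 (CT8). They measured 6931 and 16192 CPM (CT12), 36021 and 22375 (CT16), and 9460 and 21522 (CT20), and on the second day 42244 to 99080 CPM (median 72240). So CT8 A lay above every library of the subjective night and above the lowest second-day library, and the days overlapped through it.

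In per0, Lsp1alpha measured 29.6 and 8.13 CPM (CT0), 380 and 484 (CT4), and 912 and 12.3 (CT8), all below every w1118 library. It then measured 16271 and 181 CPM (CT12), 3675 and 5358 (CT16), 30434 and 6592 (CT20), 39561 and 9114 (CT24), 91867 and 44595 (CT28), and 71423 and 83175 (CT32). The duplicates at CT8 and CT12 stood far apart. From CT20 on, both per0 libraries at each time lay above both w1118 CT0 libraries, a point reached at CT16 by Lsp1beta, CT20 by Lsp1gamma, CT24 by Lsp2, and CT28 by Fbp1 and Fbp2. The CT28 pair includes the mixed library.

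**Figure D2:**
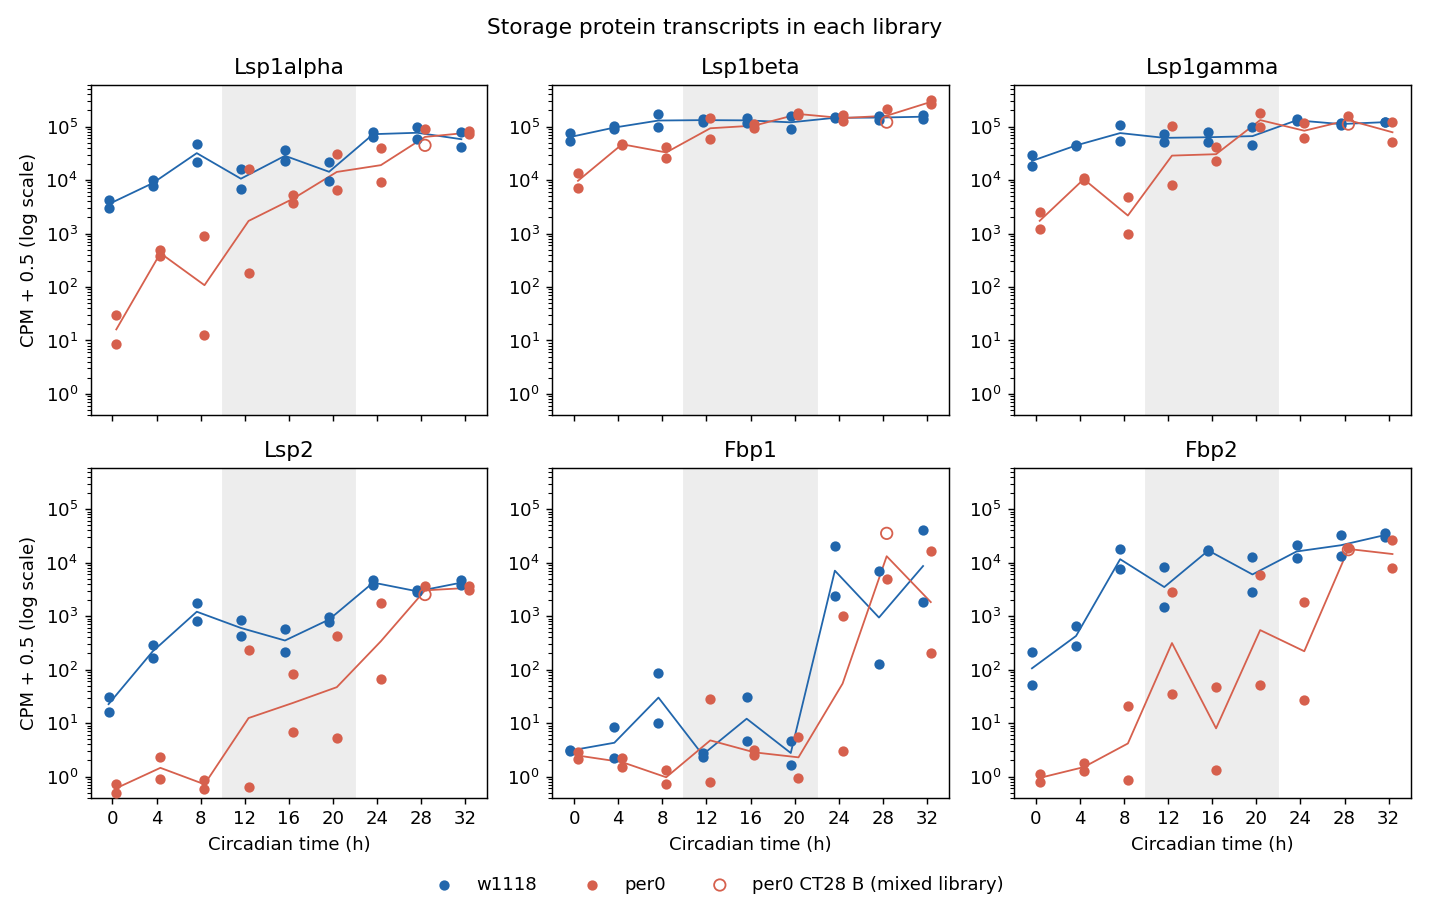
Level of each transcript (CPM + 0.5, log axis) against circadian time in hours, w1118 in blue and per0 in red, 1 point per library, with lines through the mean log level and the subjective night shaded. The open circle is the mixed per0 CT28 B library. The 6 transcripts of per0 climb from the first day to the second, Lsp1alpha, Lsp1beta and Fbp2 of w1118 overlap between the days, and at CT0 the per0 points of all but Fbp1 lie well below those of w1118.

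Lsp2, the hexamerin that forms hexamers of its own, was much scarcer than the Lsp1 subunits. In w1118 it measured 30.6 and 15.9 CPM (CT0), 168 and 284 (CT4), and 1784 and 817 (CT8). The subjective night gave 422 and 853 CPM (CT12), 570 and 214 (CT16), and 768 and 968 (CT20). The second day gave 3818 and 4692 CPM (CT24), 3023 and 2794 (CT28), and 4658 and 3835 (CT32), all above every earlier w1118 library.

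In per0, Lsp2 was close to absent on the first day, with 7 and 0 counts at CT0, 9 and 32 (CT4), and 12 and 2 (CT8). The library without a count allows up to 0.102 CPM. From there it measured 237 and 0.150 CPM (CT12), 6.34 and 81.8 (CT16), and 419 and 4.75 (CT20). It reached 1721 and 66.3 CPM (CT24), 3627 and 2531 (CT28), and 3063 and 3714 (CT32). The last 4 libraries lay in or near the w1118 range of that day, but the 2531 CPM belong to the mixed library.

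Fbp1, the receptor gene, was low in most libraries until the second day, with single higher libraries before it. In w1118 it measured 1.70 to 87.3 CPM on the first day (median 5.24) and 1.16 to 30.5 in the subjective night (median 3.19). On the second day w1118 gave 2409 and 20730 CPM (CT24), 7074 and 124 (CT28), and 41471 and 1796 (CT32). All 6 lay above the earlier libraries, and the duplicates differed by up to 56.7-fold on the CPM + 0.5 scale, at CT28.

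In per0, Fbp1 measured 0.215 to 2.39 CPM on the first day (median 1.32) and 0.300 to 27.7 in the subjective night (median 2.35). The second day gave 987 and 2.53 CPM (CT24), 4914 and 35247 (CT28), and 204 and 16339 (CT32). The 35247 CPM belong to the mixed library, and without it the highest value was 16339 CPM and the median 987 (n = 5).

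Among the 6 genes, Fbp2 and Lsp2 were the furthest apart between the genotypes on the first day. In w1118 it measured 215 and 51.2 CPM (CT0), 652 and 277 (CT4), and 17670 and 7596 (CT8). It stayed between 1479 and 17311 CPM in the subjective night (median 10610) and between 12175 and 35076 on the second day (median 25935). The second-day range of w1118 overlapped that of the first day through CT8 A alone.

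In per0, Fbp2 measured 0.603 and 0.307 CPM (CT0), 1.31 and 0.745 (CT4), and 19.96 and 0.344 (CT8). The night gave 2820 and 34.4 CPM (CT12), 0.836 and 47.0 (CT16), and 5772 and 51.4 (CT20). The second day gave 1824 and 26.1 CPM (CT24), 18566 and 17456 (CT28), and 26874 and 7788 (CT32). At each time from CT12 to CT24 at least 1 library of the pair was at or below 51.4 CPM. Without the mixed library the second-day medians of per0 (n = 5) were 71423 CPM for Lsp1alpha, 209852 for Lsp1beta, 115767 for Lsp1gamma, 3063 for Lsp2 and 7788 for Fbp2, and the lowest Lsp1beta value was 125992 CPM.

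The second day was compared with the first at matched clock phase (CT24, CT28 and CT32 against CT0, CT4 and CT8, 12 libraries per genotype), with edgeR's quasi-likelihood test and Benjamini-Hochberg adjustment over all genes tested, with calls made below an adjusted p of 0.05. In w1118, 5 of the 6 rose, where 4.57% of all tested genes rose. Fbp1 rose by 10.13 ± 1.65 log2 (SE, adjusted p = 0.00316), Fbp2 by 4.99 ± 1.16 (adjusted p = 0.0181) and Lsp2 by 4.15 ± 0.98 (adjusted p = 0.0194). Lsp1alpha rose by 2.87 ± 0.65 (adjusted p = 0.0159) and Lsp1gamma by 1.52 ± 0.43 log2 (adjusted p = 0.0413). Lsp1beta differed by 0.71 ± 0.38 log2 (-0.04 to 1.46 within 2 SE) and did not pass (adjusted p = 0.237). Among 14 alternatives Lsp1beta was called with a filter of 10 CPM, DESeq2, voom and limma on the authors' normalized signal. The days did not overlap for Lsp1gamma, Lsp2 and Fbp1, which held upward for 1.62% of the genes of at least 10 CPM on average. In the same w1118 comparison 6 of 8 fat body markers and 5 of 10 hemocyte markers fell, where 10.5% of all tested genes fell. Of the fat body markers 1, Tsf1, rose. In per0 0 fat body markers fell, 2 rose and 1 hemocyte marker rose, where 8.97% of all tested genes rose. The part of these markers in the result was not tested.

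Of the 6 in w1118, 1 was called without CT0 A, 2 without CT0 B and 2 without CT4 A, and 1 with either CT0 and CT24 or CT4 and CT28 left out. The sizes stayed positive in all of these. Lsp1gamma was not called without any library except CT8 A, and the adjusted p ranged from 0.0304 to 0.214. Nor was it called with scaling without the 6 genes, without a filter, with the roX or the testis covariate, or with any 1 phase left out, and over the 14 alternatives its adjusted p ranged from 6.26e-06 to 0.646.

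In per0 all 6 rose from the first day to the second, where 8.97% of all tested genes rose, and the libraries of the days did not overlap for any of them, which held for 6.75% of the 5256 genes of at least 10 CPM on average. Lsp2 rose by 12.57 ± 1.20 log2 (adjusted p = 0.000461), from 0 to 32 counts per library on the first day, Fbp1 by 12.30 ± 2.35 (adjusted p = 0.00821), Fbp2 by 11.81 ± 1.63 (adjusted p = 0.002), Lsp1alpha by 8.23 ± 1.22 (adjusted p = 0.00277), Lsp1gamma by 4.69 ± 0.58 (adjusted p = 0.00132) and Lsp1beta by 2.90 ± 0.44 log2 (adjusted p = 0.00284). The rises of Lsp2, Fbp1 and Fbp2 lay within each other's errors. All 6 were called with any 1 library left out, the mixed one included. With CT8 and CT32 left out Lsp1beta (adjusted p = 0.051) and Fbp1 (adjusted p = 0.0812) were not called, nor was Fbp1 with CT4 and CT28 left out (adjusted p = 0.055). The summed roX RNAs were 93.6 to 331 CPM in the first-day libraries of this comparison and at most 2.90 CPM in 3 of the 6 second-day libraries, and with them as a covariate all 6 were still called.

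The interaction test asked whether the second-day change differed between the genotypes. The rise of Lsp2 was larger in per0 by 8.26 ± 1.43 log2 (adjusted p = 0.0122) and that of Lsp1gamma by 2.99 ± 0.64 (adjusted p = 0.0416), where 0.423% of all tested genes were called with a larger change in per0. For the others the difference was 6.60 ± 1.67 log2 for Fbp2 (adjusted p = 0.0975), 5.18 ± 1.21 for Lsp1alpha (adjusted p = 0.0705), 1.99 ± 0.48 for Lsp1beta (adjusted p = 0.0829) and 2.05 ± 2.33 for Fbp1 (adjusted p = 0.68), none of which passed. Without the mixed library 4 of the 6 were called, with Lsp1alpha at 5.42 (adjusted p = 0.0402) and Lsp1beta at 2.20 log2 (adjusted p = 0.0226) added, where 1.51% of all tested genes were called in either direction. DESeq2 called 5 of the 6 and the quasi-likelihood test 5 with library sizes computed without the 6 genes. The share of all genes called in these alternative fits is not given here. Lsp1gamma kept its call without per0 CT28 B and lost it in each of the other 23 omissions of a library, with adjusted p from 0.0226 to 0.146. Lsp2 kept its call in all 24, and lost it with voom and with CT8 and CT32 left out, where none of the 6 was called.

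**Figure D3:**
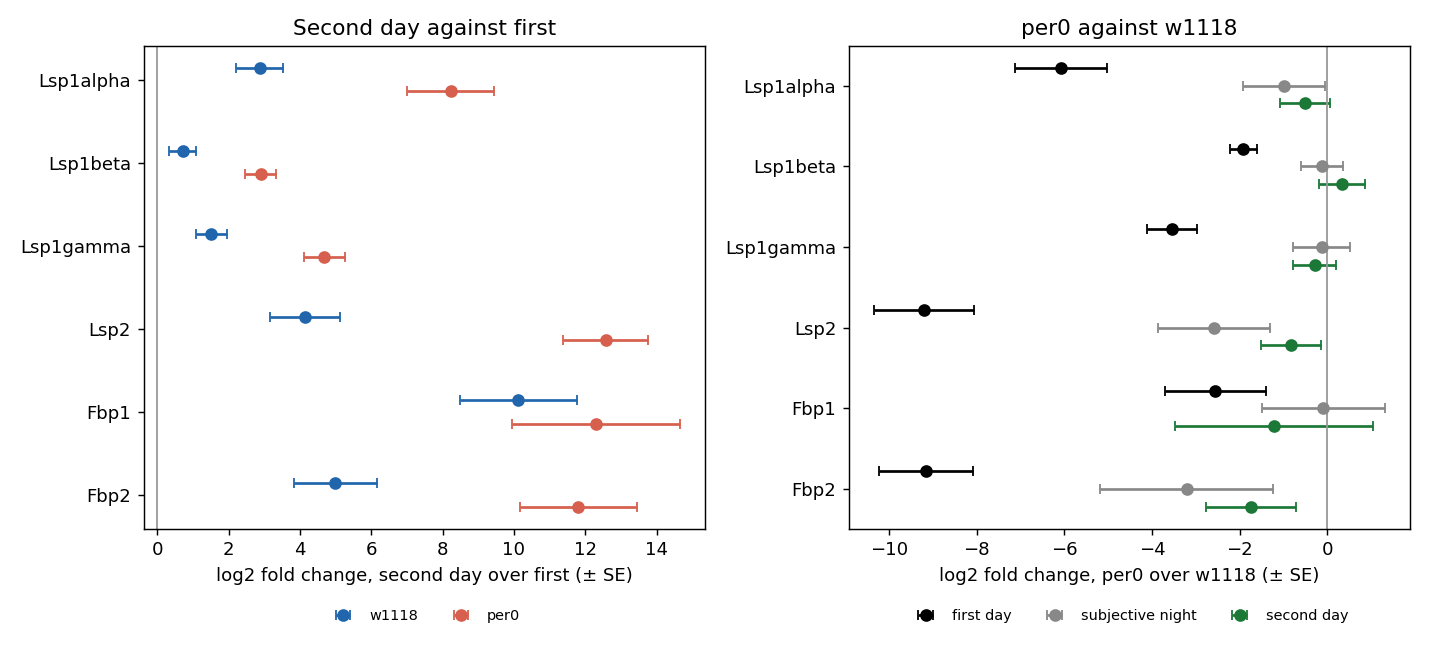
Fitted log2 fold changes with standard errors for each transcript. On the left is the second day against the first in w1118 (blue) and per0 (red). On the right is per0 against w1118 on the first day (black), in the subjective night (grey) and on the second day (green). The first-day differences run from -1.92 to -9.20 log2, and those of the second day from -1.75 to 0.33.

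On the first day per0 was lower than w1118 for 5 of the 6, where 9.56% of all tested genes were lower. Lsp2 differed by -9.20 ± 1.14 log2 (adjusted p = 0.000762), Fbp2 by -9.16 ± 1.07 (adjusted p = 0.000537), Lsp1alpha by -6.08 ± 1.04 (adjusted p = 0.00361), Lsp1gamma by -3.54 ± 0.57 (adjusted p = 0.00274) and Lsp1beta by -1.92 ± 0.31 (adjusted p = 0.00272). All 6 per0 libraries lay below all 6 of w1118 for these 5 genes, which held for 6.51% of the genes of at least 10 CPM on average. For Fbp1 the ranges overlapped, and at -2.56 ± 1.15 log2 it was not called (adjusted p = 0.154). DESeq2 called Fbp1 lower (adjusted p = 0.0148), and no other alternative did. The 5 calls held with any 1 library left out.

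In the subjective night none of the 6 was called between the genotypes, against 13.3% of all tested genes in either direction, and none had an unadjusted p under 0.05. Fbp2 differed by -3.21 ± 1.97 log2 (-7.16 to 0.73 within 2 SE), Lsp2 by -2.58 ± 1.28 (-5.15 to -0.02) and Lsp1alpha by -0.98 ± 0.93 (-2.85 to 0.89). Lsp1gamma, Lsp1beta and Fbp1 differed by -0.13 ± 0.65, -0.13 ± 0.48 and -0.09 ± 1.40 log2, and their sign turned when single libraries were left out. DESeq2 and voom also called none of the 6. The genotypes overlapped for all 6, while per0 lay wholly lower for 3.48% of the genes of at least 10 CPM on average.

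On the second day none of the 6 was called, against 5.0% of all tested genes, none had an unadjusted p under 0.05, and neither DESeq2 nor voom called any. The differences were 0.33 ± 0.53 log2 for Lsp1beta, -0.29 ± 0.49 for Lsp1gamma, -0.50 ± 0.57 for Lsp1alpha, -0.83 ± 0.68 for Lsp2, -1.21 ± 2.26 for Fbp1 and -1.75 ± 1.03 for Fbp2. For Fbp2 the range within 2 SE was -3.81 to 0.32 log2 and for Fbp1 -5.73 to 3.30, so sizable differences remain possible at this replication. The genotypes again overlapped for all 6, with per0 wholly lower for 0.799% of such genes. Without per0 CT28 B none of the 6 was called either, where 40.9% of all tested genes were.

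Over all 9 times per0 was lower for 4 of the 6, a share to be read against 23.0% of all tested genes. Fbp2 differed by -4.81 ± 1.26 log2 (adjusted p = 0.00347), Lsp2 by -3.32 ± 0.96 (adjusted p = 0.00749), Lsp1alpha by -2.19 ± 0.74 (adjusted p = 0.0195) and Lsp1gamma by -1.20 ± 0.44 (adjusted p = 0.0285). Lsp1beta, at -0.55 ± 0.26, and Fbp1, at -1.30 ± 0.99, did not pass (adjusted p = 0.0859 and 0.281). Among 10 alternatives Lsp1beta was called lower with a filter of 10 CPM, DESeq2, voom, and the roX and testis covariates. Without per0 CT4 A or without per0 CT4 B, 2 of the 6 were called. Lsp1gamma was not called without both w1118 CT0 libraries (-0.89 log2, adjusted p = 0.0984), with scaling without the 6 genes, without a filter, or in 13 of 36 single omissions.

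Across the 9 times of a genotype taken as a factor, 4 of the 6 differed in w1118 (Lsp1alpha, Lsp2, Fbp1 and Fbp2), where 12.2% of all tested genes did. Among 11 alternatives Lsp1gamma was called with a filter of 10 CPM, DESeq2, voom, the testis covariate and limma on the authors' normalized signal. Lsp1beta was called with that filter and with DESeq2. Fbp2 was not called without both w1118 CT0 libraries, 1 of which carries the conflicting genotype tag (adjusted p = 0.0599), nor Fbp1 with voom (adjusted p = 0.0517). In per0 the 4 called were Lsp1beta, Lsp1gamma, Lsp2 and Fbp1, against 9.71% of all tested genes, with Lsp1alpha and Fbp2 just outside (adjusted p = 0.0541 and 0.0524). Lsp1alpha and Fbp2 were each called in most alternatives, DESeq2 and a filter of 10 CPM among them. The per0 count fell to 1 without CT0 A, CT0 B, CT4 A, CT4 B, CT32 A or CT32 B, to 2 without CT16 A, CT16 B or CT24 B, and to 3 without CT8 B, CT24 A, CT28 A or CT28 B. With voom neither Lsp2 nor Fbp1 was called (adjusted p = 0.887 and 0.173), and with the roX covariate Lsp2 was not. The course over the 9 times was called different between the genotypes for none of the 6, against 0.374% of all tested genes, although 5 had an unadjusted p under 0.05. DESeq2 called 5 of them and voom 1, and the share of all genes called by these tools is not given here.

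No rhythm was called. For a 24 h period 0 of the 6 passed in w1118 (0.618% of all tested genes did) and 0 in per0 (0.0%), and for 12 h 0 in w1118 (0.0%) and 0 in per0 (0.0%). DESeq2 and voom called 0 in each of these, as did fits with linear time added. The main rhythm fits held no trend, so the rise between the days entered their error. Rhythms in these genes could thus be missed. For Lsp2 at 24 h in per0 the fitted peak-to-trough difference was 5.02 ± 3.53 log2. An unadjusted p under 0.05 occurred once, for Fbp1 at 24 h in per0, with a fitted peak-to-trough difference of 13.31 ± 4.79 log2 (adjusted p = 0.471).

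The mix of Lsp1 subunit transcripts changed along with their level. Per kilobase, Lsp1alpha was 5.79 to 28.997% of Lsp1beta in w1118 on the first day (median 9.57%), 5.90 to 26.0% in the subjective night (median 13.2%) and 31.7 to 64.6% on the second day (median 48.7%). In per0 the same ratio was 0.0491 to 2.33% (median 0.530%), 0.321 to 17.6% (median 5.06%) and 7.58 to 45.8% (median 28.9%). Lsp1gamma went from a median of 51.0% of Lsp1beta on the first day to 89.8% on the second in w1118, and from 19.7% to 65.0% in per0, where CT32 A stood at 17.9% beside the highest Lsp1beta level of the series. Without the mixed library the second-day medians of per0 were 25.2% for Lsp1alpha and 52.6% for Lsp1gamma (n = 5). Shared reads among the subunits limit all of these ratios.

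**Figure D4:**
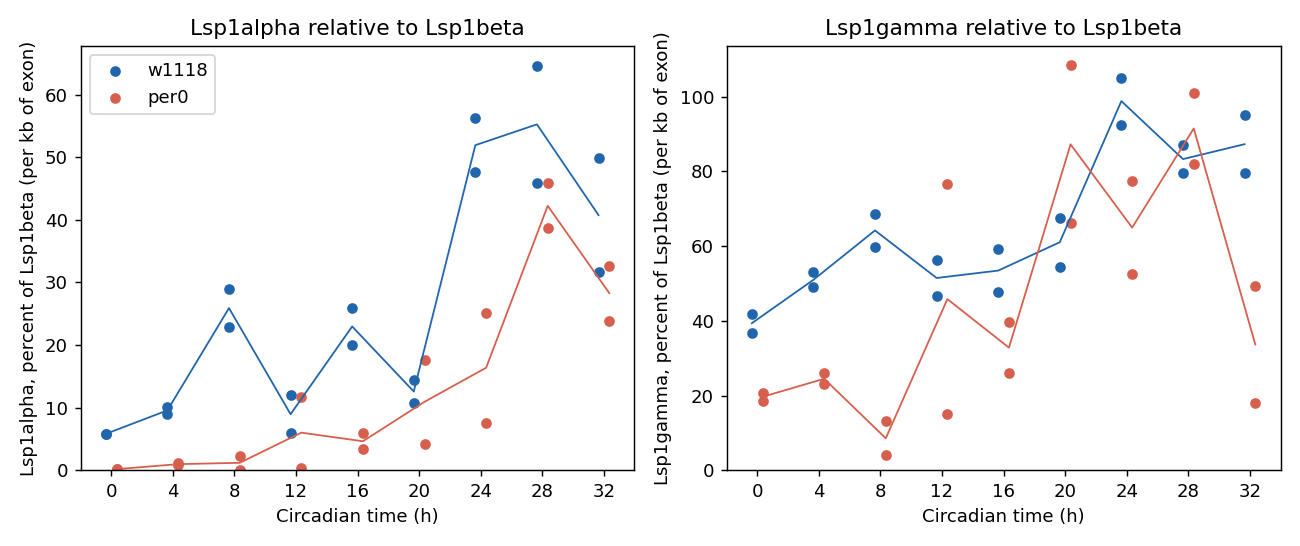
Lsp1alpha (left) and Lsp1gamma (right) as a percentage of Lsp1beta, per kilobase of exon, against circadian time in hours, with 1 point per library and lines through the means. In w1118 Lsp1alpha grew from 5.79% at CT0 A to 64.6% at CT28 A, and in per0 it stayed at or under 2.33% through CT8.

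The libraries in which the 6 genes passed a given level were nested. At or above 1000 CPM were Lsp1beta in 36 libraries, Lsp1gamma in 35, Lsp1alpha in 29, Fbp2 in 21, Lsp2 in 12 and Fbp1 in 8. At 100 CPM the numbers were 36, 36, 33, 24 for Fbp2, 23 for Lsp2 and 11 for Fbp1, and at 10 CPM they were 36, 36, 35, 30, 27 and 14. At 10, 100 and 1000 CPM no library had a gene of this order past the level without all genes before it. The order is that of the median levels of the genes over the 36 libraries, and the levels were chosen after the values were seen. The nesting thus largely follows abundance and gives no order in time.

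The duplicates differed more for these genes than for most. The median difference between A and B over the 9 times was 2.73 log2 for Fbp1 in w1118 and 4.599 log2 for Fbp2 in per0, against a median of 0.24 in w1118 and 0.29 in per0 over genes of at least 10 CPM. Lsp1beta was the steadiest, at 0.26 in w1118 and 0.39 in per0, and Lsp1gamma followed with 0.46 and 0.94. Fbp2 in per0 and Fbp1 in w1118 stood at the 99.7th and 99.5th percentile of those genes.

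The 6 genes tended to move together within a pair. In w1118 all 6 were higher in the same library at 6 of 9 times, and in per0 at 4 of 9. That library was A at each of these times except w1118 CT20. At per0 CT12 all 6 were higher in A, on the CPM + 0.5 scale by 89.5-fold for Lsp1alpha, 12.6-fold for Lsp1gamma and 2.47-fold for Lsp1beta. Lsp2 measured 237 CPM in A and had 3 counts in B, so no fold is given for it. At w1118 CT20 all 6 were higher in B.

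**Figure D5:**
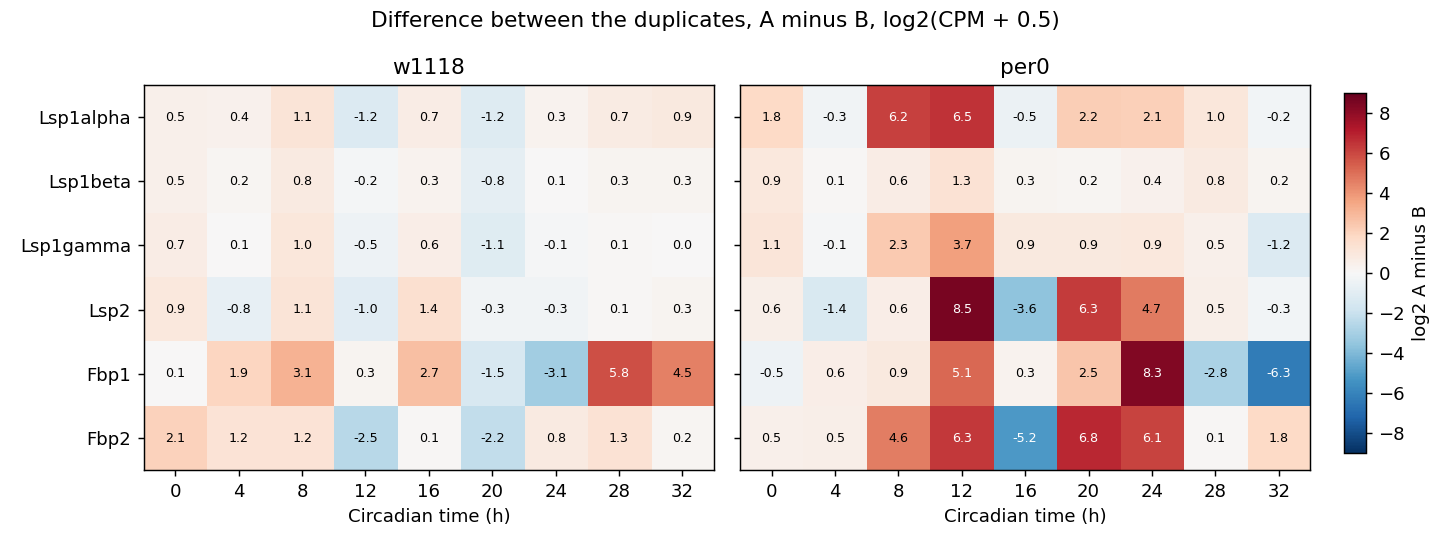
Difference between the A and B library of each pair in log2(CPM + 0.5), by transcript and circadian time in hours, red where A was higher and blue where B was higher. The per0 CT12 column is red throughout and reaches 8.5 for Lsp2, while Lsp1beta stays within 1.3 in both genotypes.

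Ordered by their mean log2 level, neighbouring times mostly overlapped. Of the 8 neighbouring pairs of times, 6 overlapped for Lsp1alpha in w1118 and 6 in per0, 7 for Fbp1 in w1118 and 7 in per0, and 3 for Lsp1beta in per0. For Lsp1beta, Lsp1gamma, Lsp1alpha, Lsp2 and Fbp2 the lowest mean log2 level was at CT0 in w1118 and in per0. Lsp2 in w1118 separated CT0 from CT4, CT8 from CT28, and CT28 from CT32, without overlap. With 2 libraries per time, ordered by these same levels, such gaps can arise by chance. Their share over all genes was not computed.

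The genes whose log2 level was most like each member over the 18 libraries of w1118 and the 18 of per0, by the lower of the 2 Pearson correlations among 5250 genes of at least 10 CPM, were described without a test. CG7320 led for Lsp1alpha (0.96) and Lsp1gamma (0.92) and followed CG3961 (0.92) for Lsp1beta (0.91). Obp99b, an odorant-binding protein gene, led for Lsp2 (0.95), followed by the transporter gene Mct1 (0.93) and CG10171 (0.93). For Fbp1 the nearest were the tetraspanin gene Tsp42Ep (0.94), CG7342 (0.92) and br, an early ecdysone response gene (0.91). CARPB was near Lsp1beta (0.89) and Fbp2 (0.90), and Oatp74D, which encodes the ecdysone importer, near Lsp1alpha (0.91). The libraries share a time course, and Spearman's rank correlation kept 2, 2, 1, 1, 0 and 1 of the 3 genes named for Lsp1alpha, Lsp1beta, Lsp1gamma, Lsp2, Fbp1 and Fbp2.

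Tsp42Ep shows what the likeness to Fbp1 looks like. It measured 0 to 12.0 CPM on the first day of w1118 and 118.8 to 829 CPM on the second, and in per0 0.0342 to 0.129 CPM and 0.0468 to 569 CPM. CG7320 went from 16.8 to 190 CPM on the first day of w1118 to 243 to 292 on the second, and in per0 from 1.78 to 18.6 CPM to 96.1 to 358. Obp99b in per0 went from 35.8 to 147 CPM to 328 to 38241 CPM.

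The ecdysone response was read from 17 genes. In w1118, 4 of 15 tested rose on the second day and 0 fell (median 0.13 log2, the same as over all genes, 0.13), where 4.57% of all tested genes rose. EcR, the receptor, changed by 1.21 ± 0.19 log2 (adjusted p = 0.00247), br by 1.34 ± 0.27 (adjusted p = 0.00956) and Eip74EF, an early response gene, by 1.58 ± 0.28 (adjusted p = 0.00519). In per0, 7 of 14 rose and 1 fell (median 0.36, over all genes -0.11), where 8.97% of all tested genes rose, with Eip74EF at 3.50 ± 0.28, br at 2.94 ± 0.37 and EcR at 1.92 ± 0.25 log2.

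On the first day, 4 of 15 ecdysone response genes were lower in per0 than in w1118 and 1 was higher (median -0.52 log2, over all genes -0.06), where 9.56% of all tested genes were lower. Eip74EF differed by -2.21 ± 0.22 log2 (adjusted p = 0.000228), br by -1.91 ± 0.22 (adjusted p = 0.000548) and EcR by -0.78 ± 0.17 (adjusted p = 0.0108), while usp, the partner of EcR, differed by -0.22 ± 0.10 and did not pass (adjusted p = 0.143). The levels of Eip74EF on that day were 11.2 to 39.0 CPM in w1118 and 2.15 to 5.72 in per0. Of the 5 juvenile hormone genes tested, 1 rose in w1118 (4.57% of all tested genes did) and 2 in per0 (8.97%) on the second day. Kr-h1, the factor induced by that hormone, differed by 0.34 ± 0.29 log2 in w1118 (adjusted p = 0.416) and rose by 0.79 ± 0.24 in per0 (adjusted p = 0.0491).

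Of 14 other secreted proteins of the fat body, 3 rose and 4 fell on the second day in w1118 (median -0.19 log2, over all genes 0.13), where 4.57% of all tested genes rose and 10.5% fell. Obp99b rose there by 3.84 ± 0.78 log2 (adjusted p = 0.00933), Tsf1, the iron carrier transferrin, by 2.19 ± 0.21 (adjusted p = 0.00089) and NLaz, a lipocalin, by 1.72 ± 0.29 (adjusted p = 0.00349). In per0, 5 of 14 rose and 0 fell (median 0.50, over all genes -0.11), where 8.97% of all tested genes rose, with Obp99b at 7.81 ± 0.86, Tsf1 at 3.78 ± 0.68 and Gbp1, a growth-blocking peptide, at 1.68 ± 0.25 log2. On the first day 7 of the 14 were lower in per0 than in w1118, against 9.56% of all tested genes, with Obp99b at -5.09 ± 0.50 and Tsf1 at -3.74 ± 0.55 log2. The phenoloxidases, which are relatives of the hexamerins in sequence but enzymes of melanin formation, had 1 of 3 called on the second day in w1118, PPO1 at -1.19 ± 0.31 log2 (adjusted p = 0.0302), with PPO2 at -0.96 ± 0.30 (adjusted p = 0.0583) and PPO3 at -0.92 ± 0.39 (adjusted p = 0.146) not passing. In per0 0 of 3 passed, with adjusted p from 0.251 to 0.522 and 0 unadjusted p under 0.05. PPO1 and PPO2 are also on the list of hemocyte markers, of which 5 of 10 fell in w1118 on the second day. The part of hemocytes in the phenoloxidase levels was not tested.

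Entry of secreted proteins into the endoplasmic reticulum was represented by 15 genes. In w1118, edgeR called 0 of 14 tested on the second day, with 0 unadjusted p under 0.05 (median -0.10 log2, over all genes 0.13), and in per0 6 of 14 rose (median 0.57, over all genes -0.11), where 8.97% of all tested genes rose. TRAM, a protein of the translocation channel, rose in per0 by 1.13 ± 0.20 log2 (adjusted p = 0.00566) and Spase25, a signal peptidase subunit, by 1.02 ± 0.20 (adjusted p = 0.00984). On the first day 8 of 14 were lower in per0 (median -0.56 log2, over all genes -0.06), where 9.56% of all tested genes were lower. Of the 4 fat body transcription factors tested, edgeR called 0 on the second day in w1118, with 0 unadjusted p under 0.05, and 3 rose in per0, against 8.97% of all tested genes, srp, a GATA factor of the fat body, by 0.82 ± 0.16 log2 (adjusted p = 0.0091).

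Other tissues and stage marks moved beside these results. The salivary glue genes, whose proteins are made in salivary glands late in the instar, summed to at most 3.51 CPM on the first day and in the subjective night of both genotypes. On the second day they reached 1197 CPM at w1118 CT24 A, 2289 at w1118 CT32 B and 12940 at the mixed per0 CT28 B, and in the rest they were at most 30.4 CPM. Fbp1 was 2409, 1796 and 35247 CPM in those 3 libraries, and its highest w1118 level, 41471 CPM at CT32 A, came with 30.4 CPM of glue RNA.

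The 10 hemocyte markers summed to 18549 to 26744 CPM on the first day of w1118 and 2203 to 13342 on the second, nearly all of it Nplp2. The other 9 summed to 413 to 1543 and 263 to 807 CPM in w1118, and to 412 to 1572 and 410 to 1493 CPM in per0. The summed testis markers ran from 0.506 to 264 CPM on the first day of w1118 and from 1.19 to 1082 on the second, and the midgut markers from 12.5 to 21474 CPM on the first day of per0 and from 0.946 to 7645 on the second. In these 4 groups of libraries no gene of the hemocyte, testis and midgut lists was at 0 throughout. The part of these tissues in the results was not tested, beyond a fit with testis RNA as a covariate, under which 4 of the 6 rose on the second day in w1118 and all 6 in per0.

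Male RNA varied too. The roX RNAs, which males make, summed to 8.38 to 235 CPM over the w1118 libraries, with 12.2 and 78.6 CPM at CT0. In per0 they summed to 93.6 to 331 CPM on the first day, 1.32 and 1.97 CPM at CT20, and on the second day 168 and 1.03 CPM (CT24), 0.667 and 85.3 (CT28), and 2.90 and 182 (CT32). The duplicates of a time could thus differ widely in male RNA, and the part of sex in the levels of the X-linked Lsp1alpha was tested only as a covariate. At per0 CT12, where Lsp1alpha stood at 16271 and 181 CPM, they were 62.8 and 95.9 CPM. With roX RNA as a covariate 4 of the 6 rose on the second day in w1118 and all 6 in per0. The share of all genes that rose in this fit, and in that with testis RNA, is not given here.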

How the data were processed

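The authors deposited raw counts per gene for each genotype, which entered all main results, and a normalized signal per genotype, which per the values is counts divided by a factor per library (99.8% of values in w1118 and 99.9% in per0 within 1%). The tools, in no stated order, were DESeq2 1.30.1, edgeR, STAR 2.7.9a and featureCounts, per the submitters' processing notes; the genome build and annotation are not given in the sources used here. Libraries were made with SMART-Seq v4, per the labels' protocols, which keeps no strand and no molecular identifiers, so intervals and floors cover counting error only. For 1 sample titled w1118 CT0 the genotype tag reads per0; the title was followed. Columns carry letters that no label ties to replicate numbers. The labels name the duplicates as biological replicates without saying what was separate, so p-values measure the spread between these pools, which may be partly technical. Fits without a separate level for each genotype and time also count departures from their model in that spread.

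Counts were fitted with edgeR 4.0.16 in R 4.3.3 (TMM scaling, filterByExpr, quasi-likelihood F test, Benjamini-Hochberg adjustment over all genes tested, called under 0.05). Second-day fits hold clock phase, genotype fits hold time, and rhythm fits hold 24 h and 12 h pairs together. The range over 9 times, the day changes, the genotype differences and their interaction were tested this way. Lone samples left by an omission were taken to have the spread of the remaining groups. Alternatives were limma 3.58.1 (voom), DESeq2 1.42.0, other scaling and filters, roX and testis covariates, omitted libraries and phases, limma on the deposited signal, and the column letter as a block. The last 2 of these, and the fits without both w1118 CT0 libraries, were chosen after seeing the data. Named genes were all 6 members, the 3 genes most like each of them, and up to 2 genes per list with the smallest second-day p in each genotype, with EcR, usp, br, srp, Kr-h1, roX and glue genes always eligible; nAChRalpha7, apolpp, mt:lrRNA and Nplp2 were named after their values were seen. The members and the 15 lists (137 genes, all matched) were chosen with earlier results of these data known. The fits were tested on simulated counts. Scripts read exon lengths and chromosomes from the Ensembl annotation.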

Additional observations from a re-analysis of the deposited data

Results flagged for a closer look

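Of 36 groups of 6 libraries (each gene in each genotype and part of the series), 4 had a library that stood apart from the other 5 on the log2 scale. The cutoff picks about 1 in 20 groups when all values of a group come from the same normal distribution. These groups span several times and correlated genes share their libraries, so that rate does not apply here. In per0 on the second day, CT24 B was lowest for Lsp1alpha, at 9114 CPM against 39561 to 91867 in the others, and for Lsp2, at 66.3 CPM against 1721 to 3714. In w1118 in the subjective night, CT16 A was highest for Fbp1, at 30.5 CPM against 1.16 to 4.19. In per0 on the first day, CT8 A was highest for Fbp2, at 19.96 CPM against 0.307 to 1.31.

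Between the genotypes, the second-day change was larger in per0 for Lsp2, by 8.26 log2 with both the w1118 rise of 4.15 and the per0 rise of 12.57 called, and for Lsp1gamma, by 2.99 log2 (1.52 in w1118 and 4.69 in per0). Both were tested as an interaction of genotype and day in edgeR.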

How the results depend on the processing

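No label ties the column letters A and B to the replicate numbers, so they were not taken as pairs. Over 5256 genes of at least 10 CPM, the A minus B differences of 2 times correlated from -0.42 to 0.37 in w1118 (median 0.03, 14 of 36 pairs of times over 0.1) and from -0.23 to 0.49 in per0 (median 0.22, 26 of 36 over 0.1), and Lsp1beta was higher in A at 7 of 9 times in w1118 and 9 of 9 in per0. With the letter as a replicate block, a fit chosen after seeing the data, 5 genes rose on the second day in w1118 and 6 in per0, 3 differed in that change, 4 were called over the times of w1118 and 5 in per0, 4 between genotypes over all times, 5 on the first day, and 0 in the subjective night, on the second day, for the time course and for each rhythm. Lsp1alpha gained its call in the difference of the changes, and over the times of per0 Lsp1alpha and Fbp2 gained theirs and Lsp2 lost it. Of the results for single genes, 2300 kept their direction and side of the threshold, 65 gained a call, 120 lost it and 19 changed sign. The count of genes higher on the second day in w1118 moved from 5 to 1 with CT0 and CT24 left out and to 1 with CT4 and CT28 left out. The count whose second-day change differed between genotypes moved from 2 to 5 with scaling without the 6 genes, 5 with DESeq2, 4 with a filter of 10 CPM, 1 without a filter, 1 with the testis covariate, 1 with CT0 and CT24 left out and 0 with CT8 and CT32 left out. For the time course it moved from 0 to 1 with the filter of 10 CPM, 5 with DESeq2 and 1 with voom. The cause was not tested.

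Leaving out 1 library at a time gave 4 to 4 genes over the times of w1118 and 1 to 6 in per0, 1 to 5 for the second day in w1118 and 6 to 6 in per0, 1 to 4 for the difference of the changes, 2 to 4 for the genotypes over all times, 5 to 5 on the first day, and 0 to 0 for the subjective night, the second day between genotypes, the time course and each rhythm. Signs turned for results that were not called. For the difference of the changes, Fbp1 was -0.017 with CT8 and CT32 left out and ranged from -0.32 to 2.86 over single omissions, the lowest without per0 CT32 B. In the subjective night Fbp1 was 0.043 without a filter, and over single omissions it ranged from -1.75 to 0.74, Lsp1beta from -0.26 to 0.12 and Lsp1gamma from -0.60 to 0.21. On the second day between genotypes Fbp1 ranged from -3.07 to 0.34, the highest without w1118 CT32 A.

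Scaling without the 6 genes moved the median of all genes by 0.21 log2 for the difference of the changes, and DESeq2's size factors by -0.13 for the second day between genotypes. The share of calls that were higher went from 30.4% to 44.0% with DESeq2 for the second day in w1118, from 84.7% to 59.6% with DESeq2 for the difference of the changes, and from 84.0% to 72.3% with DESeq2's size factors and 34.3% with DESeq2 for the second day between genotypes. Counts at or below 3 limit Lsp2 in early per0 libraries.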
